A study of Citrus maxima with 12 samples.

Results

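In fruit of pomelo (Citrus maxima), 85 of 32863 gene identifiers had more transcript in the cultivar Jinlan than in the cultivar Jinsha both in control fruit and in fruit with yellow spot disease, while diseased and control fruit of either cultivar differed by less than 2-fold, with 1 FPKM added to each mean. Members were chosen from the group means of FPKM (fragments relative to transcript length and library size), as log2(mean FPKM + 1). The Jinlan mean had to exceed the Jinsha mean by at least 1 in control fruit and again in diseased fruit, and the mean of diseased fruit had to lie within 1 of that of control fruit in both cultivars. All 4 contrasts between the groups were thus used in choosing the members. Their values are given as a description, without a test, and a cultivar difference or a small disease change of a member is not itself a result.

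The 12 libraries were made from fruit, with no part of the fruit named, in 4 groups of 3: Jinsha control, Jinsha disease, Jinlan control and Jinlan disease. The labels give no age, growing site, inoculation or disease stage. They number the replicates as biosamples but do not say whether these came from separate fruits or trees, so the spread between them may be technical. The files used here hold no gene names or products beside the identifiers. Members are therefore given by identifier, no function is stated for them, and the labelled tissue could not be checked against marker genes.

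Pomelo is one of the ancestral citrus species, grown for its large fruit with a thick peel. In plant pathology, a difference between cultivars that is present before and during disease is called constitutive, in contrast to an induced response that appears with infection. Constitutive differences in transcript level between cultivars are known to arise from sequence variants near a gene, from the number of gene copies, or from regulators that act on many genes. Samples of whole tissue also differ where cell types are present in unequal numbers, and fewer cells of a type cannot be told apart from less RNA per cell.

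Between 16054 and 16456 identifiers reached 1 FPKM per library, and the total FPKM per library was 550055 to 575107. The 17120 genes that reached 1 FPKM in 3 or more libraries are referred to as tested genes and serve as the background, and all 85 members are among them. Over the members, the median difference of a library from the mean of the other 2 libraries of its group lay between -0.07 and 0.06 on the log2(FPKM + 1) scale. Both Jinlan replicate 3 libraries lay somewhat towards the other group. Each Jinlan library was placed between control and diseased fruit over the tested genes whose means differed by at least 2 on the log2(FPKM + 1) scale in the other 2 replicate numbers, which were 153, 140 and 258 genes with replicates 1, 2 and 3 held out. The median position of Jinlan control replicate 3 was 0.195 of the way to diseased fruit, compared with -0.0443 for replicate 1 and -0.072 for replicate 2. The median position of Jinlan disease replicate 3 was 0.0962 of the way to control fruit, compared with -0.0414 for replicate 1 and 0.0104 for replicate 2. Without both replicate 3 libraries the rule gave 78 genes, 71 of them among the 85.

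The cultivar criterion alone was met by 353 genes in control fruit, by 1188 in diseased fruit and by 134 in both. Of these 134, 18 were left out because the Jinsha disease change alone was too large, 17 because the Jinlan change alone was too large, and 14 on both counts. A further 70 genes with small disease changes met the cultivar criterion in control fruit only, and 418 met it in diseased fruit only. The same rule turned round, for genes higher in Jinsha, gave 75 genes.

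Values ran continuously across each threshold of the rule. The smallest member differences between the cultivars in control fruit were 1.0021 and 1.0022, and those in diseased fruit were 1.007 and 1.012. The nearest genes outside, with all other criteria met, were at 0.998 and 0.989 and at 0.995 and 0.990. The largest disease changes among the members were -0.957 and -0.950 in Jinsha and 0.996 and 0.984 in Jinlan, and the nearest outside were -1.04 and -1.14 and 1.03 and 1.055.

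**Figure D1:**
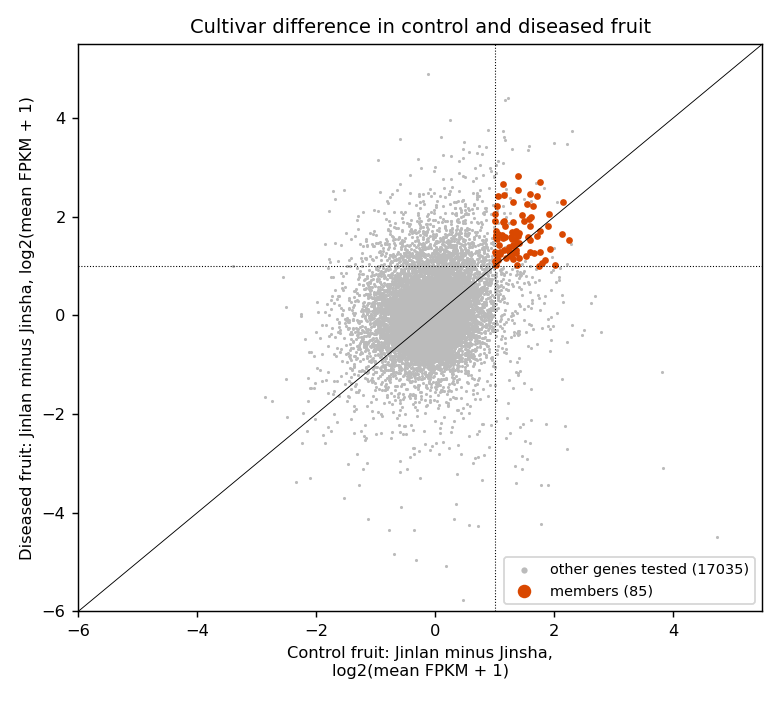
Difference between the cultivars (Jinlan minus Jinsha, log2(mean FPKM + 1)) in control fruit on the horizontal axis and in diseased fruit on the vertical axis, for each tested gene. Dotted lines mark the threshold of 1 and the solid line marks equal differences; the 85 members (orange) fill the upper right corner from the thresholds outwards, 60 of them above the line of equal differences.

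The member levels were 2.03-fold to 10.6-fold higher in Jinlan than in Jinsha control fruit, with a median of 2.77-fold, as ratios of mean FPKM. In diseased fruit they were 2.02-fold to 51.1-fold higher, with a median of 3.6-fold. The upper end belongs to Cg1g006030, singled out after its values had been seen, whose Jinsha disease mean was 0.0423 FPKM. Without Jinsha disease replicate 1 its ratio was 86.7, and without each of the other disease libraries in turn it was 42.0 to 62.5. Among the 68 members with at least 1 FPKM in both Jinsha means the ratio was at most 7.12 in control and 8.46 in diseased fruit. A ratio of at least 4 was found for 21 members in control fruit, for 35 in diseased fruit and for 18 in both. The same shares of tested genes were not computed. Since the rule set a minimum on both differences, nothing is read from these counts. The median difference on the log2(mean FPKM + 1) scale was 1.31 for control and 1.58 for diseased fruit. Over all tested genes the corresponding medians were -0.09 and -0.07.

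The 2 members with the largest difference in control fruit, among the 67 with a mean of at least 5 FPKM in both Jinlan groups, were Cg4g014890 and Cg2g025690. Cg4g014890 was at 3.83, 4.49 and 5.74 FPKM in Jinsha control libraries and at 5.98, 3.76 and 5.22 FPKM in Jinsha disease libraries. The Jinlan libraries were at 27.3, 26.6 and 23.8 FPKM in control and at 16.7, 15.2 and 17.2 FPKM in diseased fruit. All Jinlan libraries were therefore well above all Jinsha libraries, and within Jinlan the diseased libraries lay below the control libraries. The ratio of the cultivars went from 5.53 in control to 3.28 in diseased fruit.

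Cg2g025690 was at 0.962, 0.871 and 0.324 FPKM in Jinsha control libraries and at 0.663, 1.44 and 0.932 FPKM in Jinsha disease libraries. Jinlan levels were 7.42, 5.46 and 6.84 FPKM in control and at 9.56, 8.16 and 9.06 FPKM in diseased fruit. Its ratio hardly differed between both kinds of fruit, at 9.14 in control and 8.82 in diseased fruit.

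In diseased fruit the largest differences among the same 67 members were found for Cg7g022990 and Cg2g040600. Cg2g020430, singled out after its values had been seen and with a mean of 3.69 FPKM in Jinlan control fruit, had a larger one of 2.82. Cg7g022990 was nearly constant in Jinlan, with 51.3 ± 1.13 FPKM in control and 50.6 ± 3.65 FPKM in diseased fruit (SD, n = 3). In Jinsha its control libraries were at 14.3, 14.4 and 14.5 FPKM and its diseased libraries at 7.11, 6.96 and 6.71 FPKM. The lower level of diseased Jinsha fruit thus took the ratio from 3.56 to 7.31.

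Cg2g040600 differed with disease in both cultivars, in opposite directions. It was at 22.05, 20.14 and 19.997 FPKM in Jinsha control libraries and at 12.4, 13.97 and 12.02 FPKM in Jinsha disease libraries. In Jinlan it was at 46.0, 43.4 and 51.5 FPKM in control and at 81.3, 86.5 and 91.9 FPKM in diseased fruit. The ratio was 2.27 in control and 6.76 in diseased fruit, and no 2 of the 4 groups overlapped.

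The most abundant members were Cg8g014060 and NewGene_4110. Cg8g014060 was at 249, 244 and 234 FPKM in Jinsha control libraries and at 273, 346 and 348 FPKM in Jinsha disease libraries. The Jinlan libraries were at 613, 572 and 628 FPKM in control and at 751, 755 and 807 FPKM in diseased fruit. Diseased libraries were above control libraries in both cultivars, and the ratio of the cultivars was 2.49 and 2.39.

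NewGene_4110 was at 198, 192 and 169 FPKM in Jinsha control and at 143, 172 and 149 FPKM in Jinsha disease libraries. Jinlan levels were 436, 394 and 423 FPKM in control and at 590, 555 and 614 FPKM in diseased fruit. Control and diseased libraries overlapped in Jinsha but not in Jinlan.

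**Figure D2:**
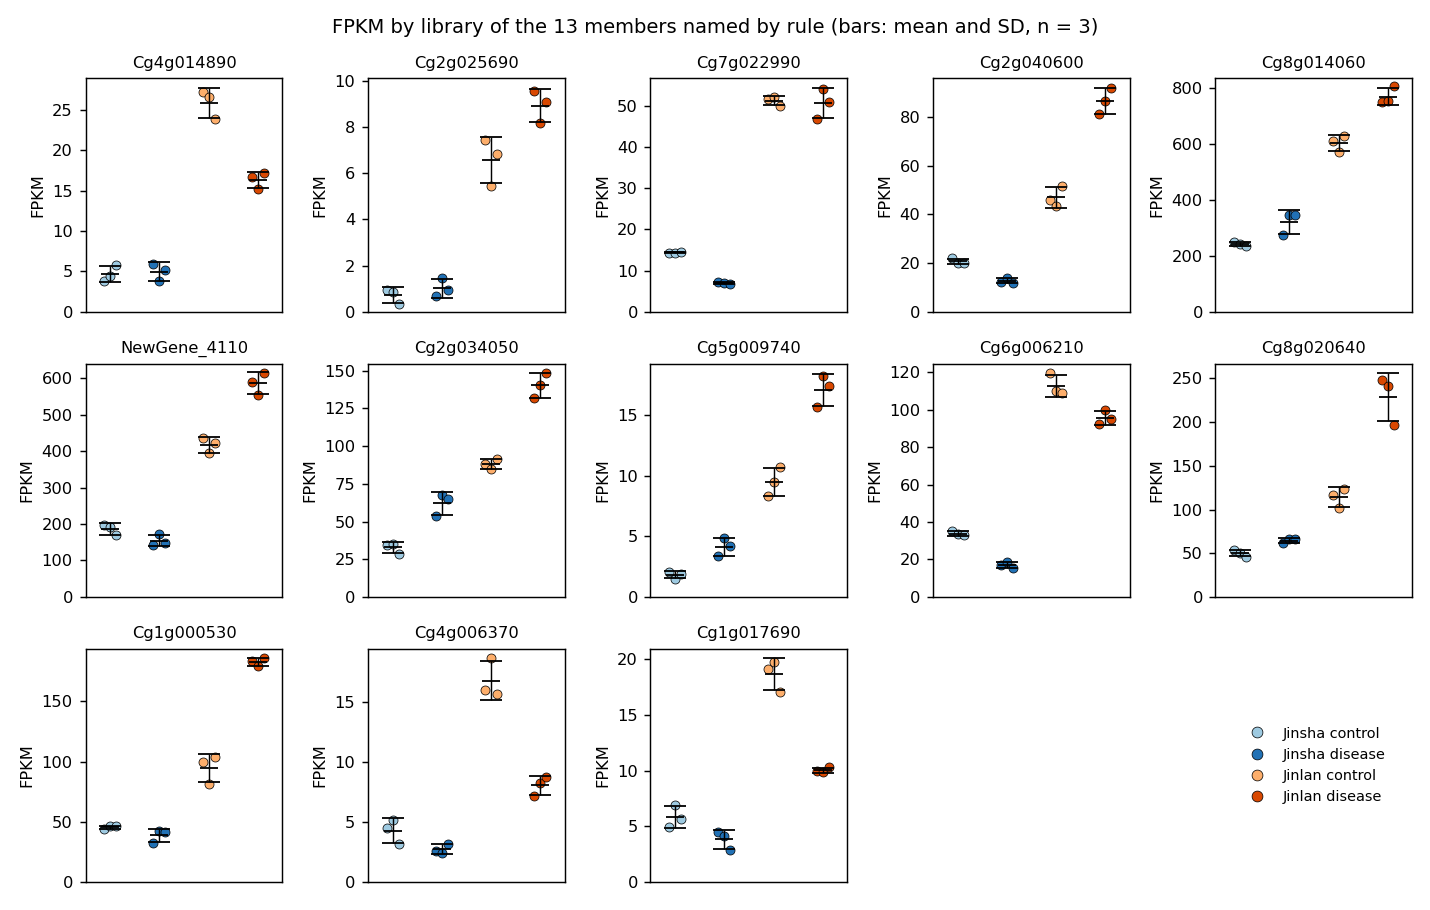
FPKM of the 13 members named by rule in each of the 12 libraries (points, coloured by group), with the mean and SD of each group (bars, n = 3); each vertical axis starts at 0. In all 13 panels every Jinlan library lies above every Jinsha library, and the disease changes inside a cultivar go up in some panels and down in others.

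Separation of single libraries was nearly complete. All 6 Jinlan libraries lay above all 6 Jinsha libraries for 84 of the 85 members, against 6.37% of tested genes; since the rule fixed the group means, nothing is read from this count. In control fruit the 3 Jinlan libraries lay above the 3 Jinsha libraries for all 85 members (23.6% of tested genes), and in diseased fruit for 84 (30.2% of tested genes). The exception was Cg2g025710. It was at 3.59, 2.44 and 2.44 FPKM in Jinlan control libraries and at 4.45, 0.463 and 5.02 FPKM in Jinlan disease libraries. In Jinsha it reached at most 1.21 FPKM, and Jinlan disease replicate 2 was the library that lay among the Jinsha values.

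Whether the cultivar difference appeared in libraries that had no part in the choice was examined by applying the rule to 2 replicate numbers and reading the third. With replicate 1 held out, 89 genes were chosen, and 62 of them differed by at least 1 in both control and diseased fruit in the held-out libraries, against 0.736% of tested genes. With replicate 2 held out the numbers were 56 of 90 (0.713% of tested genes), and with replicate 3 held out they were 57 of 74 (1.12% of tested genes). Both differences were above 0 in 88 of 89, 89 of 90 and 73 of 74 genes, against 21.6%, 19.7% and 23.0% of tested genes. The held-out medians were 1.27, 1.27 and 1.32 for control and 1.40, 1.62 and 1.59 for diseased fruit. Each held-out group is 1 library, so there is no test. Whether the shares under 100% come from genes near the threshold was not examined. The genes were chosen by the same difference in other libraries of the same groups, so shares above the background were likely. Replicates may also be technical, so the held-out libraries may not be independent of those used for the choice.

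Member levels spanned a wide range. The mean over the 6 Jinlan libraries was 1.88 to 688 FPKM with a median of 27.1 FPKM, compared with a median of 11.5 FPKM over tested genes. The rule favours genes high in Jinlan, so nothing is read from this comparison. In Jinsha the member mean had a median of 8.90 FPKM, and the same median over tested genes was not computed. The Jinlan mean was below 5 FPKM for 13 members, 5 to 50 FPKM for 41 and at least 50 FPKM for 31. With 1 added before the logarithm, a gene of low level needs a larger ratio to enter. The 13 members of low level had a median ratio of 5.39 in control fruit and 6.65 in diseased fruit, and the 31 of high level had 2.49 and 2.97.

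Most members had transcript in both cultivars. In 62 members every one of the 12 libraries was at 1 FPKM or more. In 12 members all Jinsha libraries were below 1 FPKM and all Jinlan libraries at 1 FPKM or more. Their means were 0.162 to 0.794 FPKM in Jinsha and 1.88 to 5.98 FPKM in Jinlan. The same shares of tested genes were not computed. The rule required higher Jinlan means, so nothing is read from either count. A value listed at 0 was found once, for Cg2g004690 in Jinsha disease replicate 2.

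Together the members held 0.389 ± 0.0088% of the total FPKM of Jinsha control libraries and 0.374 ± 0.0036% of that of Jinsha disease libraries (SD, n = 3). In Jinlan they held 0.992 ± 0.0169% in control and 1.14 ± 0.0181% in diseased fruit. The mean share in Jinlan was 2.55 times that in Jinsha in control and 3.06 times in diseased fruit. The 10 most abundant members accounted for 51.4% of the member total in Jinlan.

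**Figure D3:**
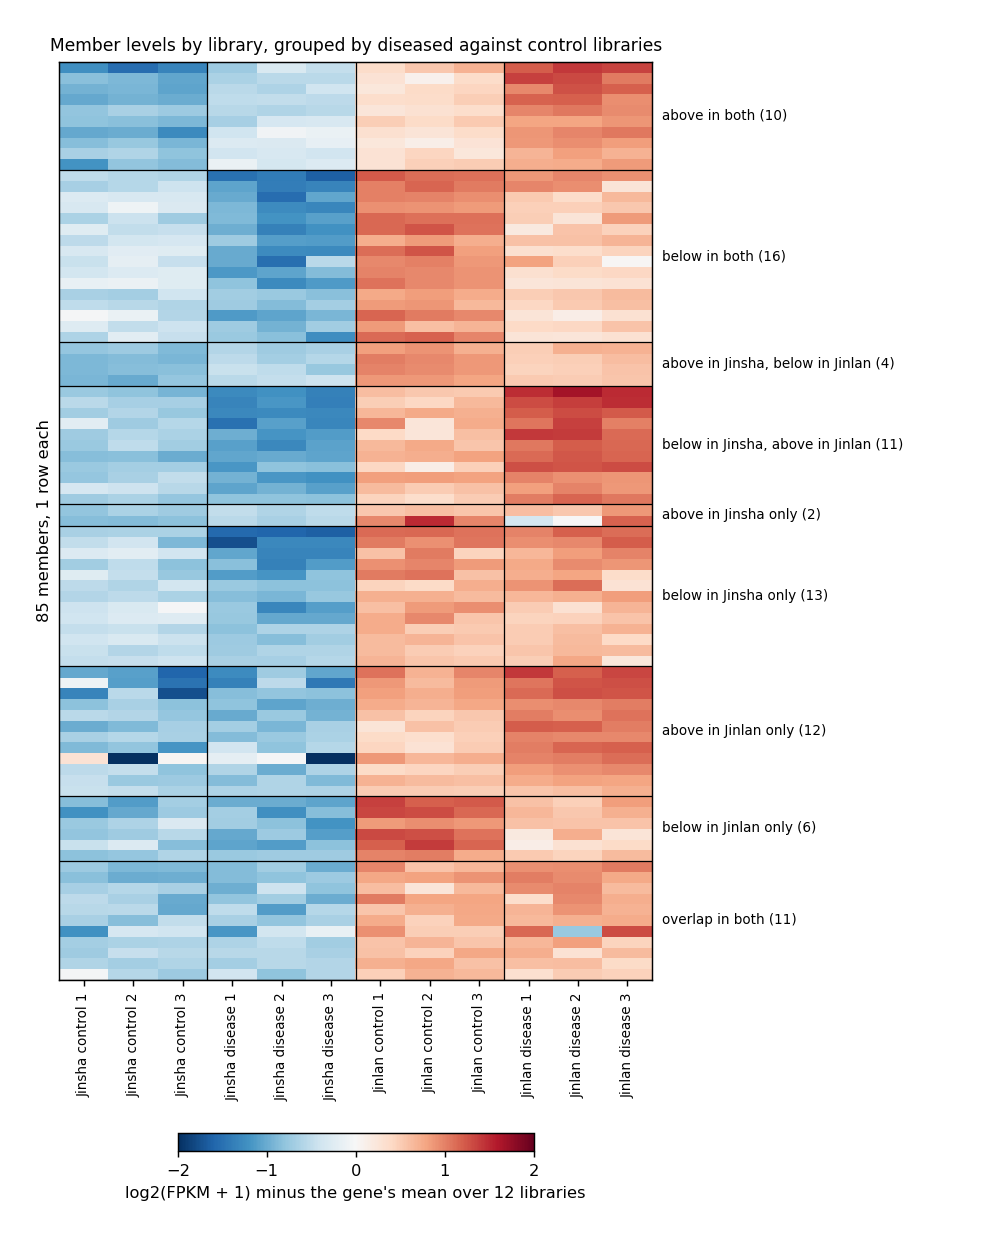
Level of each of the 85 members (rows) in each library (columns), as log2(FPKM + 1) minus the gene's mean over 12 libraries. Rows are grouped by whether all diseased libraries of a cultivar lie above or below all its control libraries, with the number of members in brackets; the 6 Jinsha columns are blue and the 6 Jinlan columns red in nearly every row.

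Within the bounds of the rule, the members still differed in how they stood in diseased fruit. In Jinsha all diseased libraries were above all control libraries for 16 members (30.6% of tested genes) and below them for 40 (33.9% of tested genes). In Jinlan they were above for 33 (34.5% of tested genes) and below for 26 (33.1% of tested genes). The rule bounds these changes, so the counts describe the members and are not compared with the background. The median change was -0.18 in Jinsha and 0.05 in Jinlan on the log2(mean FPKM + 1) scale, and over tested genes it was -0.02 and 0.01.

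By both cultivars together, 10 members were higher in diseased libraries in both (11.4% of tested genes) and 16 were lower in both (13.8% of tested genes). Opposite directions were found for 11 members that were lower in diseased Jinsha and higher in diseased Jinlan libraries (10.6% of tested genes), and for 4 members the other way round (9.43% of tested genes). Separation in 1 cultivar alone was found for 33 members, against 41.5% of tested genes. Of these, 13 were lower in diseased Jinsha libraries (9.46% of tested genes), 12 higher in diseased Jinlan (12.4%), 6 lower in diseased Jinlan (9.87%) and 2 higher in diseased Jinsha libraries (9.71%). The libraries overlapped in both cultivars for 11 members (13.2% of tested genes). Both disease changes were smaller than 0.25 in size for 19 members. The same share of tested genes was not computed. The quartiles of the change over tested genes were -0.31 and 0.23 in Jinsha and -0.27 and 0.29 in Jinlan. Small changes were thus common among them, and nothing is read from this count.

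Among the 67 members with at least 5 FPKM in both Jinlan means, those higher in diseased Jinsha fruit with no overlap of libraries are given first. The largest changes were those of Cg2g034050 and Cg5g009740, and both were also higher in diseased Jinlan fruit. Cg2g034050 was at 34.4, 35.3 and 28.7 FPKM in Jinsha control and at 53.6, 67.5 and 64.8 FPKM in Jinsha disease libraries. In Jinlan it was at 88.4, 84.6 and 91.6 FPKM in control and at 132, 140 and 149 FPKM in diseased fruit. The 4 groups of libraries formed an unbroken order without overlap, from Jinsha control over Jinsha disease and Jinlan control to Jinlan disease.

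Cg5g009740 showed the same order at a lower level. It was at 2.09, 1.51 and 1.89 FPKM in Jinsha control and at 3.37, 4.84 and 4.22 FPKM in Jinsha disease libraries. The Jinlan libraries were at 8.34, 9.48 and 10.7 FPKM in control and at 15.7, 18.3 and 17.4 FPKM in diseased fruit. The ratio of the cultivars was 5.2 in control and 4.13 in diseased fruit.

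The most negative such changes in Jinsha were those of Cg7g022990, given above, and Cg6g006210. Cg6g006210 was at 35.2, 33.4 and 32.9 FPKM in Jinsha control and at 17.3, 18.4 and 15.5 FPKM in Jinsha disease libraries. Jinlan levels were 119, 110 and 109 FPKM in control and at 92.2, 99.6 and 95.1 FPKM in diseased fruit. It was thus lower in the diseased libraries of both cultivars, by 0.95 in Jinsha and 0.24 in Jinlan on the log2 scale of group means.

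Among these 67 members and in Jinlan, the most positive changes without overlap were those of Cg8g020640 and Cg1g000530. Cg8g020640 was at 117, 102 and 124 FPKM in Jinlan control and at 248, 241 and 197 FPKM in Jinlan disease libraries. In Jinsha it was at 53.2, 50.8 and 46.0 FPKM in control and at 61.6, 65.8 and 65.9 FPKM in diseased fruit. With a change of 0.996 it lay just inside the bound of the rule. Cg2g020430, outside the 67, had a change of 0.98.

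Cg1g000530 was at 99.3, 81.5 and 103 FPKM in Jinlan control and at 183, 179 and 186 FPKM in Jinlan disease libraries. In Jinsha it was at 44.2, 46.1 and 46.1 FPKM in control and at 32.7, 42.0 and 41.3 FPKM in diseased fruit. Diseased fruit was thus higher in Jinlan and lower in Jinsha, and the ratio of the cultivars was 2.08 in control and 4.72 in diseased fruit.

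The most negative such changes in Jinlan were those of Cg4g006370 and Cg1g017690. Cg4g006370 was at 16.1, 18.7 and 15.7 FPKM in Jinlan control and at 7.22, 8.23 and 8.77 FPKM in Jinlan disease libraries. In Jinsha it was at 4.49, 5.18 and 3.15 FPKM in control and at 2.59, 2.46 and 3.21 FPKM in diseased fruit. Its Jinsha libraries overlapped, while its Jinlan libraries did not.

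Cg1g017690 was at 19.1, 19.8 and 17.0 FPKM in Jinlan control and at 9.94, 9.83 and 10.3 FPKM in Jinlan disease libraries. In Jinsha it was at 4.95, 6.91 and 5.63 FPKM in control and at 4.46, 4.14 and 2.86 FPKM in diseased fruit. Diseased libraries lay below control libraries in both cultivars.

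The 4 members higher in diseased Jinsha and lower in diseased Jinlan libraries were Cg2g009690, Cg3g021710, Cg7g000350 and Cg8g021040, named here because they are few. Cg7g000350 was at 63.8, 59.8 and 69.8 FPKM in Jinsha control and at 82.5, 86.6 and 90.6 FPKM in Jinsha disease libraries. In Jinlan it was at 220, 221 and 210 FPKM in control and at 175, 172 and 178 FPKM in diseased fruit. Members of both opposite classes were picked by the direction of their disease changes, which fixes whether the cultivars are closer or further apart in diseased fruit. Over all members the cultivar difference was larger in diseased fruit for 60 and larger in control fruit for 25, and among tested genes it was larger (Jinlan minus Jinsha) in diseased fruit for 8920, or 52.1%. The rule bounds both differences, so nothing is read from this count.

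**Figure D4:**
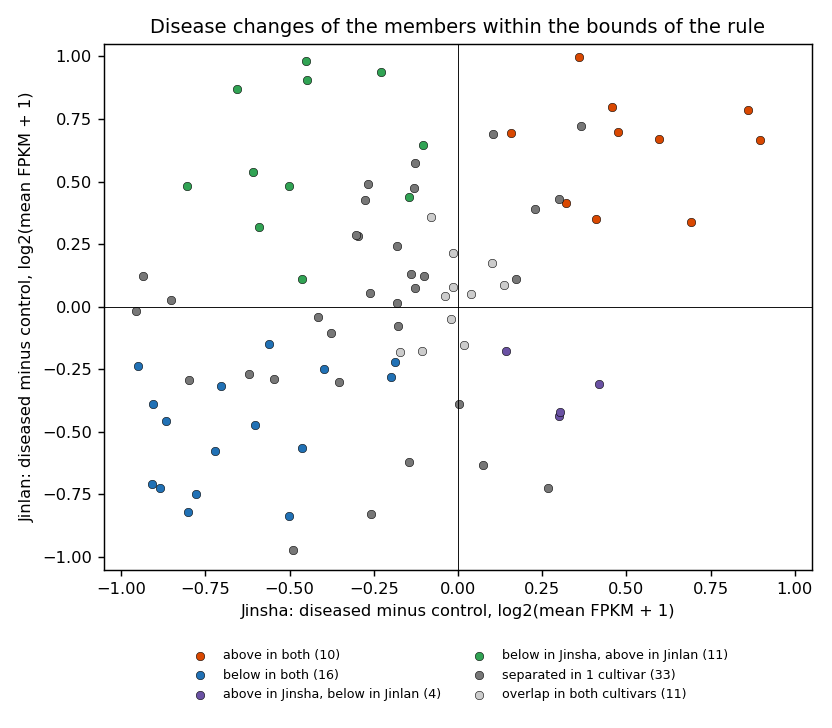
Disease change of each member in Jinsha (horizontal axis) and Jinlan (vertical axis), as diseased minus control on the log2(mean FPKM + 1) scale; both axes are limited by the rule. Colours mark members whose diseased and control libraries do not overlap in both cultivars (10 higher in both, 16 lower in both, 11 and 4 in opposite directions), dark grey those separated in 1 cultivar (33) and light grey those in neither (11).

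The spread between replicates was not used in choosing the members. The SD of log2(FPKM + 1) within groups, pooled over the 4 groups, had a median of 0.132 over the members and 0.101 over tested genes. At a mean of at least 50 FPKM it was 0.085 for 25 members and 0.0816 for tested genes, at 5 to 50 FPKM it was 0.144 for 38 members and 0.0903 for tested genes, and below 5 FPKM it was 0.155 for 22 members and 0.14 for tested genes. Of the 85 members, 78 had an SD under 0.25 and 2 had one of at least 0.5.

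These 2 were CgUng013160 and Cg2g025710, singled out after their values had been seen. CgUng013160 was at 15.3, 1.56 and 12.7 FPKM in Jinsha control libraries and at 10.8, 12.1 and 0.52 FPKM in Jinsha disease libraries. In Jinlan it was even across libraries, at 23.4, 20.1 and 21.2 FPKM in control and at 25.5, 26.1 and 28.0 FPKM in diseased fruit. Jinsha control replicate 2 and Jinsha disease replicate 3 were thus far below the other 4 Jinsha libraries. Over all members the median difference of these libraries from the other 2 of their groups was 0.04 and -0.01.

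Identifiers of members were spread over all prefixes. Of the 85, 21 began with Cg2g (24.7%, against 15.9% of tested genes), 11 with Cg1g, 10 each with Cg5g and Cg7g, 7 each with Cg3g and Cg4g, 6 with Cg8g, 5 each with Cg6g and Cg9g, 2 with NewGene and 1 with CgUng. Cg5g held 11.8% of the members and 16.4% of tested genes. In the order of identifier numbers, 7 of the 82 members with a numbered prefix had another member within 10 places. The same count over tested genes was not made, so no clustering is read from it. These members formed 3 runs, named here after their values had been seen. Whether adjacent identifiers are copies of one gene that share reads was not tested.

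The longest run was Cg2g025690, Cg2g025710 and Cg2g025720. Cg2g025720 was at 2.91, 0.93 and 0.48 FPKM in Jinsha control and at 0.621, 1.88 and 0.542 FPKM in Jinsha disease libraries. The Jinlan libraries were at 6.57, 5.38 and 6.43 FPKM in control and at 7.71, 8.91 and 9.10 FPKM in diseased fruit. Cg2g025700, which lies between them and is no member, was also higher in the Jinlan means, at 4.96 ± 1.07 against 3.03 ± 1.24 FPKM in control and at 7.23 ± 1.23 against 2.74 ± 0.604 FPKM in diseased fruit (SD, n = 3). Its libraries overlapped between the cultivars in control fruit but not in diseased fruit. The rule required higher Jinlan means of the members beside it, so no block of genes is read from this run. The ratio of Cg2g025710 to Cg2g025690 varied from 0.0568 to 2.65 between libraries. The lowest was 0.463 against 8.16 FPKM in Jinlan disease replicate 2, and the highest 0.859 against 0.324 FPKM in Jinsha control replicate 3. At such low levels and with depth unknown, whether the pair keeps step cannot be told.

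Cg7g015330 and Cg7g015340 formed a pair of much higher level. Cg7g015330 was at 53.3, 51.8 and 46.7 FPKM in Jinsha control and at 47.1, 47.4 and 46.8 FPKM in Jinsha disease libraries. Jinlan levels were 103, 104 and 103 FPKM in control and at 108, 111 and 120 FPKM in diseased fruit. The ratio of Cg7g015340 to it lay between 1.13 and 1.34 in all 12 libraries. The rule required both to be higher in Jinlan with small disease changes, so nothing is read from this ratio. Whether the pair keeps step within groups was not tested. The 3 identifiers on either side were no members.

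The pair Cg2g001030 and Cg2g001040 was low in both cultivars. Cg2g001030 had 0.23 ± 0.0221 and 0.263 ± 0.0837 FPKM in Jinsha control and diseased fruit, and 1.92 ± 0.149 and 2.03 ± 0.394 FPKM in Jinlan (SD, n = 3). Cg2g001040 had 0.375 ± 0.166 and 0.338 ± 0.0736 FPKM in Jinsha, and 2.42 ± 0.376 and 2.53 ± 0.125 FPKM in Jinlan. The identifier just before them, Cg2g001020, stood the other way round. Its mean was 28.0 FPKM in Jinsha control and 39.9 FPKM in Jinsha diseased fruit, against 9.33 and 11.3 FPKM in Jinlan.

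**Figure D5:**
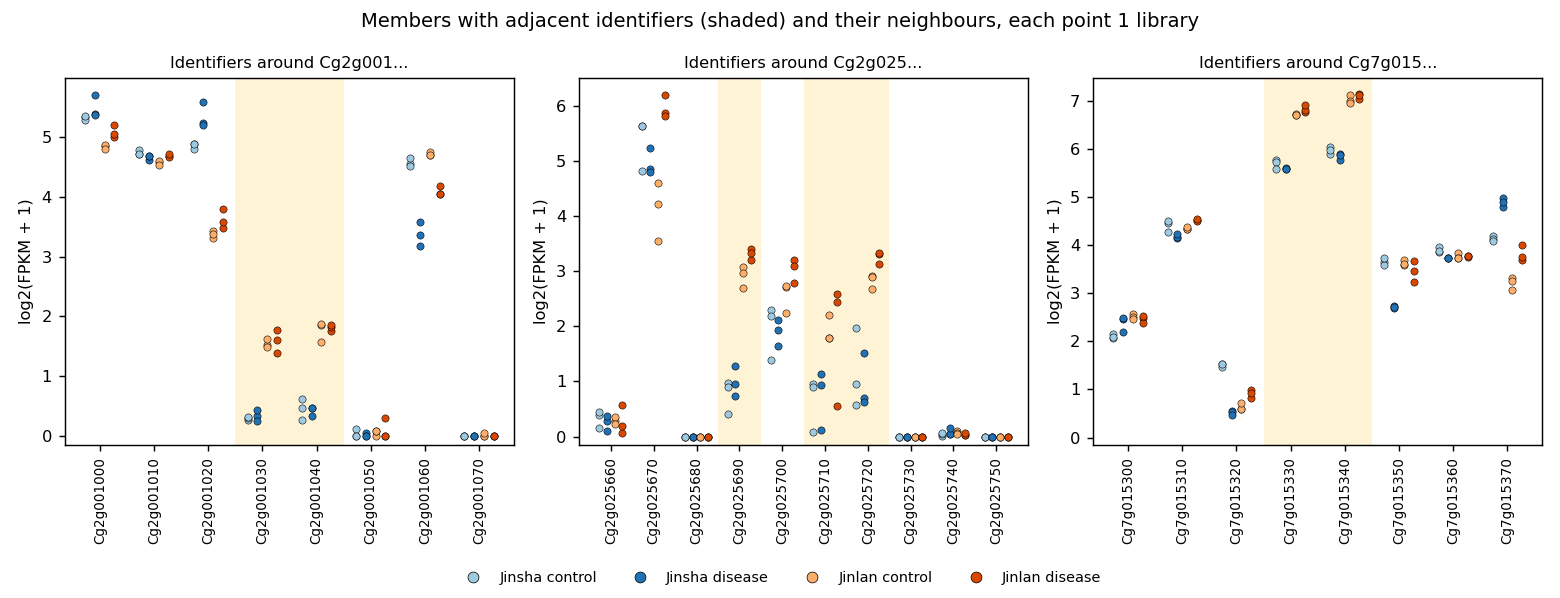
log2(FPKM + 1) in each library (points, coloured by group) for the 3 runs of members with neighbouring identifiers (shaded) and for the 3 identifiers on each side, in the order of their numbers. Jinlan points lie above Jinsha points in the shaded columns, apart from 1 Jinlan disease library of Cg2g025710. The neighbours outside the shading vary, and Cg2g025700 among them also has higher Jinlan means.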

How the data were processed

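The authors deposited FPKM values per gene and library in 1 table, without counts. Per the labels' protocols, RNA was extracted with a column kit and libraries were made with a SMARTER mRNA kit. Which aligner, genome build and quantification tool were used is not given in the sources used here. Sequencing depth is unknown, so no counting interval is given. FPKM is relative to all transcripts of a library. A value of 0 is given as listed at 0. Tables were processed in Python 3.11.15 with pandas 2.3.3 and numpy 2.4.6.

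No library was a copy of another, with at most 0.00479% of nonzero values identical between any 2. Libraries were grouped by cultivar and treatment from the labels. The rule took log2(mean FPKM + 1) per group, and was checked on simulated data. The simulated members were set well above the threshold, at means of at least 5 FPKM and with no disease change. The check therefore does not cover genes near a threshold or at low level. No filter was applied to the members; tested genes had at least 1 FPKM in at least 3 libraries. No significance test was run, since the rule used all contrasts. Separation means that the libraries of the groups compared do not overlap.

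No reference table paired the identifiers, so 0 of them were matched to a name and the planned gene lists by product could not be used. The naming rule picks up to 2 identifiers for each direction of a comparison among members with at least 5 FPKM in both Jinlan means: the largest cultivar differences, the highest Jinlan levels, and the largest disease changes without overlap of libraries. Identifiers outside this rule were named after their values had been seen, also where this is not stated beside them. The members and all lists were chosen with earlier results of these data known. Alternatives were pseudocounts of 0.1 and 5, other scalings, filters and thresholds, the mean of log2 values, and leaving out libraries.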

Additional observations from a re-analysis of the deposited data

Results flagged for a closer look

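Disease changes of opposite direction, with every diseased library of a cultivar above its control libraries in one cultivar and below them in the other, were found for 4 members that were higher in diseased Jinsha and lower in diseased Jinlan fruit, and for 11 the other way round. They are 4.71% and 12.9% of the members, against 9.43% and 10.6% of tested genes, and since the rule bounds both changes nothing is read from these counts. Among the members named by rule, Cg2g040600 and Cg1g000530 are of the second kind. The Jinlan change minus the Jinsha change was 1.52 for Cg2g040600 and 1.17 for Cg1g000530 on the log2(mean FPKM + 1) scale. The difference was not tested, because the rule bounds both changes.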

How the results depend on the processing

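The number of members depended on the thresholds and on the pseudocount, and less on the libraries. It was 17 with a cultivar difference of at least 1.5, 171 with at least 0.8 and 41 with disease changes within 0.5. With a pseudocount of 0.1 the rule gave 206 genes, 73 of them among the 85, and 171 had all Jinlan libraries above all Jinsha libraries. With 5 it gave 47 and 46, with 38 of the 47 among the 85. Over the 85 members the median cultivar difference in diseased fruit was 1.80 with a pseudocount of 0.1, and with 5 it was 1.17 there and 1.01 in control fruit. After quantile normalization the members held 0.368% of the FPKM of Jinsha disease libraries, a shift of more than 1 SD. Median-ratio scaling gave 100 genes and quantile normalization 101, with 85 and 82 of the members among them.

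Leaving out single libraries or 1 replicate number gave 74 to 90 members, of which 73 to 90 had no overlap between the cultivars. Whichever single library was left out, 55 of the 85 stayed members, and 30 were lost at least once. The median cultivar differences over the 85 were 1.28 to 1.35 in control and 1.51 to 1.62 in diseased fruit, and the median disease changes -0.21 to -0.14 in Jinsha and 0.0064 to 0.098 in Jinlan. Diseased libraries were above control libraries for 16 to 19 members in Jinsha and 33 to 36 in Jinlan, and below for 40 to 47 and 26 to 31. The member share of FPKM was 0.385% to 0.394% and 0.372% to 0.375% in Jinsha control and diseased fruit, and 0.985% to 1.001% and 1.14% to 1.15% in Jinlan.

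Besides the values above, 79 recomputed counts, medians and shares under other settings, and all 224 with libraries left out, stayed within 1.5 times of a count or 1 SD of a median or share. Part of them could not have moved. The pseudocount and the mean of logarithms do not enter the separation by disease, and median-ratio scaling cancels in a share. The filter on tested genes kept every member. Leaving out a Jinlan library cannot change the Jinsha disease counts, disease medians or shares, and the reverse. The tally is therefore no measure of how stable the results are. Of the values of single named genes, 35 moved by more than 1 SD, all under settings that kept every library, and no change whose libraries did not overlap turned its sign.

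No paired analysis was possible because no model was fitted, and no label ties the replicate numbers of different groups to a shared tree, batch or day. Depth is not known, so how far counting error limits the low members cannot be given.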
